A study of Mus musculus with 12 samples.

Results

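The microRNAs miR-221 and miR-222 were followed across all libraries of the series through their probes mmu-miR-221 and mmu-miR-222, chosen by name because the pair is made from one primary transcript. They are 2 of the 566 mouse miRNA probes on a panel of 620 probes. The cells were mHypoE-46, an immortalised neuronal line from embryonic male mouse hypothalamus that makes Neuropeptide Y and Agouti-related Peptide. All libraries come from this single line, so they describe 1 line and not hypothalamic tissue. The 4 groups were vehicle, which was phosphate buffered saline, at 4 h and at 24 h, and 100 nM insulin at 4 h and at 24 h. Each group had 3 libraries from experiments that the labels call independent. All groups shared DMEM with foetal bovine serum and penicillin-streptomycin. According to the labels, 4 h precedes and 24 h follows insulin resistance in this model; no reading of resistance itself was analysed here.

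A miRNA is a short RNA that guides a silencing complex to messenger RNAs, and pairing rests mainly on its seed, the bases near its 5′ end. By silencing Cdkn1b, which encodes the cyclin-dependent kinase inhibitor p27Kip1, miR-221 and miR-222 are known to let cells pass from G1 into S phase. They also repress Kit, the receptor tyrosine kinase for stem cell factor. Both are known to be induced by growth factors, and in tissues they are abundant in endothelial and vascular smooth muscle cells. Levels of Cdkn1b and Kit mRNA were not measured on this panel.

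Both members were matched to the RefSeq miRNA table (GRCm38.p6). The probe names carry no arm; the plain names stood for the 3′ arms in older miRBase releases, so those are shown. The sequences are given because the shared seed is what makes the pair one family, and the capitals mark that seed (bases 2 to 8).
miR-221-3p: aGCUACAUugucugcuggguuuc
miR-222-3p: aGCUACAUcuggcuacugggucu
miR-1928: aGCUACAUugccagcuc
Aligned from the 5′ end, the mature miR-221-3p and miR-222-3p are identical in their first 8 bases and at 11 of 23 positions in all. Among the 1679 mature miRNAs of the table, 3 carry this seed. The other one, miR-1928, is encoded on chromosome 1 and shares its first 10 bases with miR-221-3p. The hairpins lie on the minus strand of chromosome X, Mir221 at chrX:19146294-19146388 and Mir222 at chrX:19146893-19146971, with 504 bases between them. The precursors are printed to show where the 3′ arm sits, which is given in capitals.
Mir221 hairpin: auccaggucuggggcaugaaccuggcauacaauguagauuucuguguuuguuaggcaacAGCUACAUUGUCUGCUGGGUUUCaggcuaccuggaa
Mir222 hairpin: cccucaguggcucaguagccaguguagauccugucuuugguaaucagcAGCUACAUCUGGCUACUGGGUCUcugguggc

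Values are counts of fluorescent barcodes on single target molecules, read without amplification on the NanoString nCounter. A library's mouse miRNA counts totalled 142158 to 213462 at 4 h and 142491 to 379809 at 24 h. Lanes 1 to 6 held the 4 h libraries and lanes 7 to 12 the 24 h libraries, and so time and lane block cannot be told apart. The binding density of the lanes was 0.27 to 0.32 at 4 h and 0.25 to 0.49 at 24 h. Of 10 neuronal marker miRNAs on the panel, 7 were above the negative control threshold in at least 1 library. Of these 10, miR-9 had 879 to 1916 counts in all 12, while miR-124, the defining neuronal miRNA, had 17 to 95 counts and was above it in 0.

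Both members were above the negative controls in every library. In vehicle at 4 h, miR-221 had 357, 411 and 646 counts in replicates 1, 2 and 3, and in insulin at 4 h 615, 619 and 598. At 24 h it had 653, 1120 and 935 counts in vehicle and 523, 1525 and 955 in insulin. These counts were 4.64 to 13.4 times the negative control threshold of their library (mean of the 8 negative controls plus 2 SD). The counts of miR-222 were 105, 142 and 232 in vehicle at 4 h and 172, 189 and 202 in insulin at 4 h. At 24 h they were 199, 319 and 257 in vehicle and 170, 459 and 234 in insulin. All 12 libraries were above the threshold, by 1.36 to 4.37 times, so background is a larger part of the miR-222 counts. The lowest margin was in vehicle 4 h replicate 1. The third carrier of the seed, miR-1928, had 54 to 119 counts and was above the threshold in 9 of 12 libraries, by at most 1.54 times.

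In counts-per-million values (CPM, after TMM scaling, which equalises libraries on the bulk of the miRNAs), miR-221 stood at 2259, 2376 and 3311 in vehicle at 4 h. In insulin at 4 h it stood at 3070, 3044 and 3569. At 24 h, its CPM were 3975, 4702 and 4171 in vehicle and 4620, 5409 and 4405 in insulin. All 6 libraries at 24 h lay above all 6 at 4 h, with 3569 the highest at 4 h and 3975 the lowest at 24 h. Of the 195 miRNAs tested, 3.08% were separated in this way. For vehicle alone 11.8% were higher at 24 h with no overlap of the 3 libraries each, and for insulin alone 10.3%, and miR-221 was among them in both. The separation of miR-221 also held in the deposited signals (514 to 689 at 4 h, 763 to 924 at 24 h), where 5.13% of the 195 were separated, and did not hold with scaling to positive controls or to housekeeping mRNAs.

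The CPM of miR-222 were 664, 821 and 1189 in vehicle at 4 h and 859, 929 and 1206 in insulin at 4 h. At 24 h they were 1211, 1339 and 1147 in vehicle and 1502, 1628 and 1079 in insulin. The times overlapped for miR-222: within each treatment the third replicate was the highest at 4 h and the lowest at 24 h. In the signals the authors deposited, which scale each lane to the 100 most abundant miRNAs, miR-222 ran from 157 to 216 at 4 h and from 223 to 269 at 24 h, without overlap, which puts it among the same 5.13%. The overlap of miR-222 therefore depends on the scaling.

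**Figure D1:**
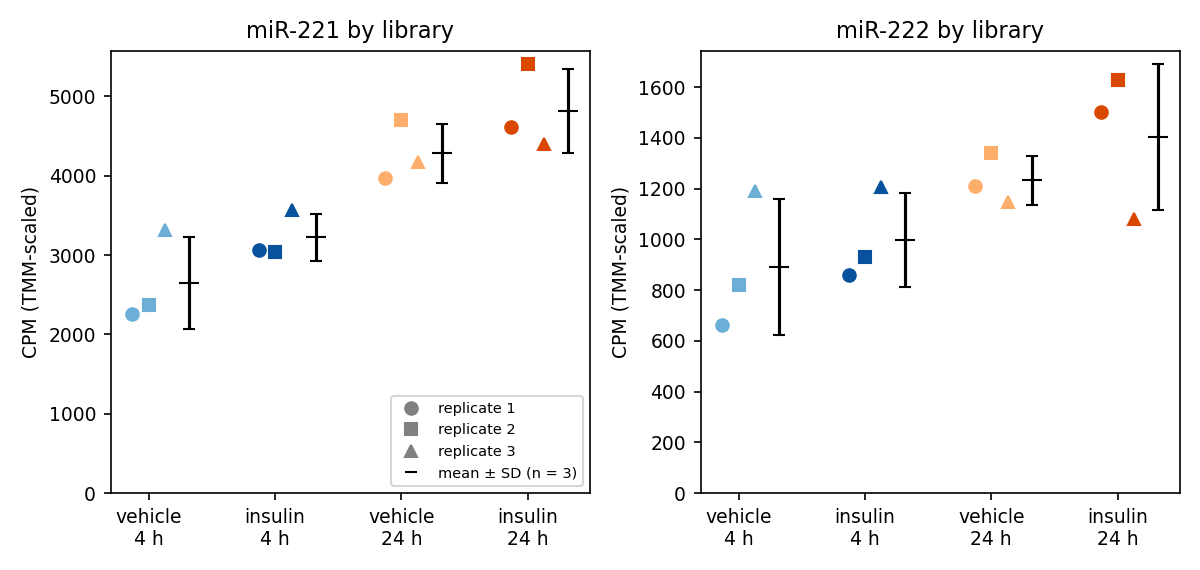
TMM-scaled CPM of miR-221 (left) and miR-222 (right) in each of the 12 libraries, by group; point shapes are replicate numbers and the black bars are the mean ± SD of 3 libraries. All miR-221 values at 24 h (3975 to 5409) lie above those at 4 h (2259 to 3569), while for miR-222 the third replicates cross.

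The order of group means was the same for both members, with the vehicle mean below the insulin mean at each time and both 4 h means below both 24 h means. From the lowest, the miR-221 means were 2648 ± 576, 3228 ± 296, 4283 ± 376 and 4811 ± 529 CPM (SD, n = 3 each). Those of miR-222 were 891 ± 269, 998 ± 183, 1232 ± 98.0 and 1403 ± 287 CPM. Neighbouring vehicle and insulin groups of one time overlapped for both members. The only neighbours in this order whose libraries did not overlap were insulin at 4 h and vehicle at 24 h for miR-221.

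The comparison of insulin with vehicle asks whether the pair responds to the hormone before or after resistance develops. At 4 h the log2 fold change of miR-221 was 0.28 (SE 0.19, 95% confidence interval -0.11 to 0.68) and that of miR-222 was 0.16 (SE 0.22, interval -0.32 to 0.64). Neither difference passed the test (edgeR, adjusted p = 0.971 for both). Without vehicle 4 h replicate 3, the highest vehicle library at 4 h for both, the values were 0.48 for miR-221 (adjusted p = 0.460) and 0.42 for miR-222 (adjusted p = 0.559), and without insulin 4 h replicate 3 that of miR-222 was -4.17e-05. Both intervals of the full fit exclude a 2-fold rise (1 on the log2 scale) and include rises as large as their upper ends. At 4 h edgeR called 0 of 195 miRNAs (0%), and 3 had an unadjusted p under 0.05. The calls of DESeq2 were 0, with 5 such miRNAs, and those of limma on the deposited signals 0, with 1.

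At 24 h, insulin minus vehicle was 0.17 (SE 0.18, interval -0.22 to 0.56) for miR-221 and 0.19 (SE 0.22, interval -0.28 to 0.65) for miR-222. The same-numbered libraries of this time varied together, and their differences were 0.22, 0.20 and 0.08 for miR-221 and 0.31, 0.28 and -0.09 for miR-222. Neither member passed the test, which had no replicate block (edgeR, adjusted p = 0.962 for both). Leaving out insulin 24 h replicate 2 lowered the values to 0.07 and 0.06, and leaving out insulin 24 h replicate 3 raised that of miR-222 to 0.35 (adjusted p = 0.738). With scaling to the 4 housekeeping mRNAs (Actb, B2m, Gapdh and Rpl19) the values turned to -0.22 and -0.19, where the median of all tested miRNAs lay at -0.33. At 24 h edgeR called 0 of 195 miRNAs (0%), and 4 had an unadjusted p under 0.05. The calls of DESeq2 were 0, with 6 such miRNAs, and those of limma 0, with 0.

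A difference of the insulin response between the times was not detectable at this spread. The 24 h response minus the 4 h response was -0.12 (SE 0.26, interval -0.67 to 0.44) for miR-221 and 0.03 (SE 0.31, interval -0.64 to 0.70) for miR-222 (edgeR, adjusted p = 0.991 for both). Averaged over both times, insulin minus vehicle was 0.23 (SE 0.13, interval -0.05 to 0.50) for miR-221 and 0.17 (SE 0.16, interval -0.16 to 0.51) for miR-222, with an adjusted p of 0.999 in edgeR. The unadjusted p of miR-221 in this average was 0.104, the 18th smallest of the 195. For the difference of responses edgeR called 0 (0%), as did DESeq2 and limma, with 0, 0 and 1 miRNAs at an unadjusted p under 0.05. For the average edgeR called 0 (0%), again as did both other tools, with 6, 7 and 1 such miRNAs.

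**Figure D2:**
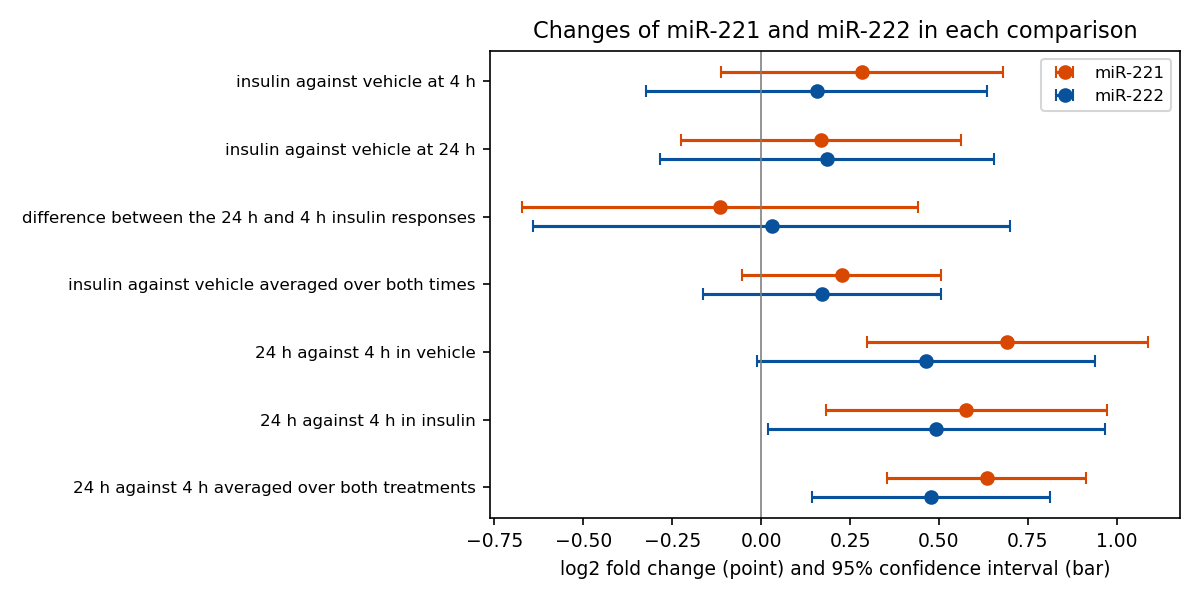
Log2 fold changes of miR-221 and miR-222 in each comparison, with points for the edgeR estimate and bars for the 95% confidence interval (12 libraries in one fit). The intervals of the 4 insulin comparisons include 0 for both members, and those of 24 h against 4 h averaged over treatments run from 0.36 to 0.91 for miR-221 and from 0.14 to 0.81 for miR-222.

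The largest differences of the pair were between the times, which also differ in lane block. Averaged over both treatments, miR-221 was higher at 24 h by 0.63 on the log2 scale (SE 0.13), which is 1.55-fold (interval 1.28 to 1.88), and it passed the test (edgeR, adjusted p = 0.00726). It had the 4th smallest p of the 195 miRNAs and the 15th largest rise. For miR-222 the value was 0.48 (SE 0.16), or 1.39-fold (interval 1.10 to 1.76), and it lay just outside the threshold (edgeR, adjusted p = 0.0528). In the same comparison 30 of 195 miRNAs (15.4%) were called, 19 of them higher at 24 h (9.74%). A call was thus made for 1 of the 2 members. Leaving out single libraries moved the count of calls from 12 (without vehicle 24 h replicate 2 or 3) to 52 (without insulin 24 h replicate 1), with 15, 16 and 19 without insulin 4 h replicate 2, insulin 24 h replicate 2 and vehicle 4 h replicate 1, while miR-221 was called in each of the 12 fits. miR-222 was called in 3 of the 12 fits, without the third replicate of vehicle 4 h (0.61, adjusted p = 0.0102), of insulin 4 h (0.56, adjusted p = 0.0324) or of insulin 24 h (0.56, adjusted p = 0.0350). In that order, these 3 fits called 40, 31 and 27 of the 195 miRNAs.

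Other tools and scalings changed these calls. DESeq2 called both members higher (miR-221 adjusted p = 2.58e-05, miR-222 adjusted p = 0.0212), where it called 10.3% of the 195 higher. limma on the deposited signals also called both (adjusted p = 0.00121 and 0.0277), where 8.72% were called higher. With scaling to positive controls miR-221 stood at 0.51 (adjusted p = 0.0628), and with housekeeping scaling at 0.27 (adjusted p = 0.307) against a median of -0.33 over all tested miRNAs, so its distance from that median was 0.60 in both. The distance of miR-222 from the median was 0.45 with housekeeping scaling and 0.44 as reported. The geometric mean of the housekeeping mRNAs was 2962 to 3965 counts at 4 h and 2331 to 9643 at 24 h. The share of calls that were higher at 24 h, 63.3% of 30 as reported, was 50.0% of 32 with the 100 most abundant miRNAs as the scale, 23.5% of 17 with positive controls and 0% of 17 with housekeeping mRNAs. Under each scaling run, both estimates lay above the median of all tested miRNAs. A scaling moves all miRNAs of a library by 1 factor, so this distance barely changes and does not test the scaling. The distance of both estimates from 0 depended on the reference.

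**Figure D3:**
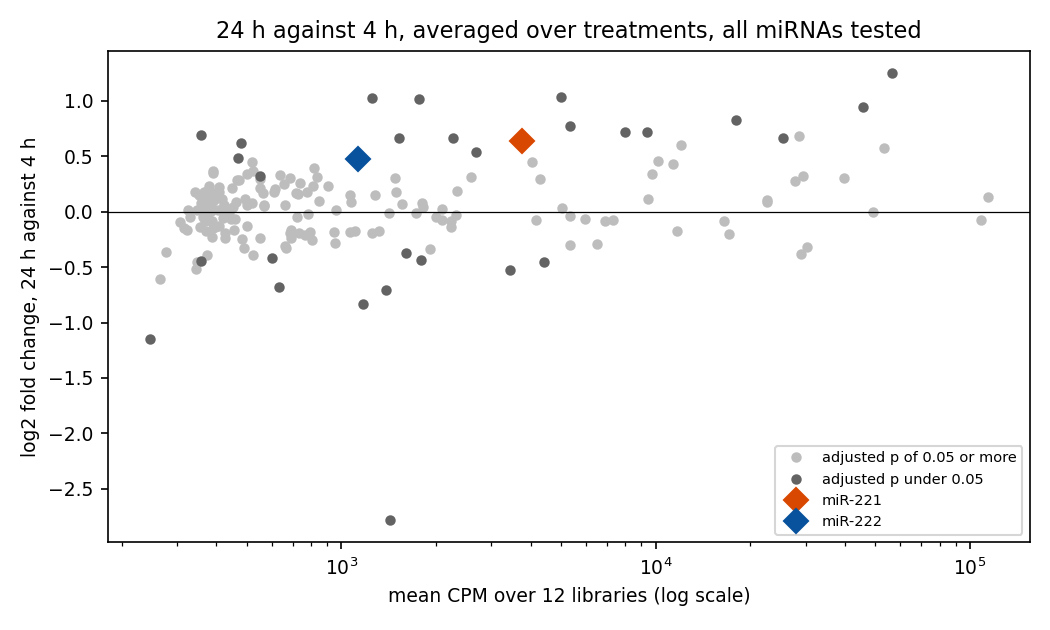
Log2 fold change of 24 h against 4 h, averaged over both treatments (vertical axis), against mean CPM on a log scale (horizontal axis) for the 195 miRNAs tested; dark points have an adjusted p under 0.05. The orange diamond is miR-221 at 0.63 and the blue diamond is miR-222 at 0.48.

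**Figure D4:**
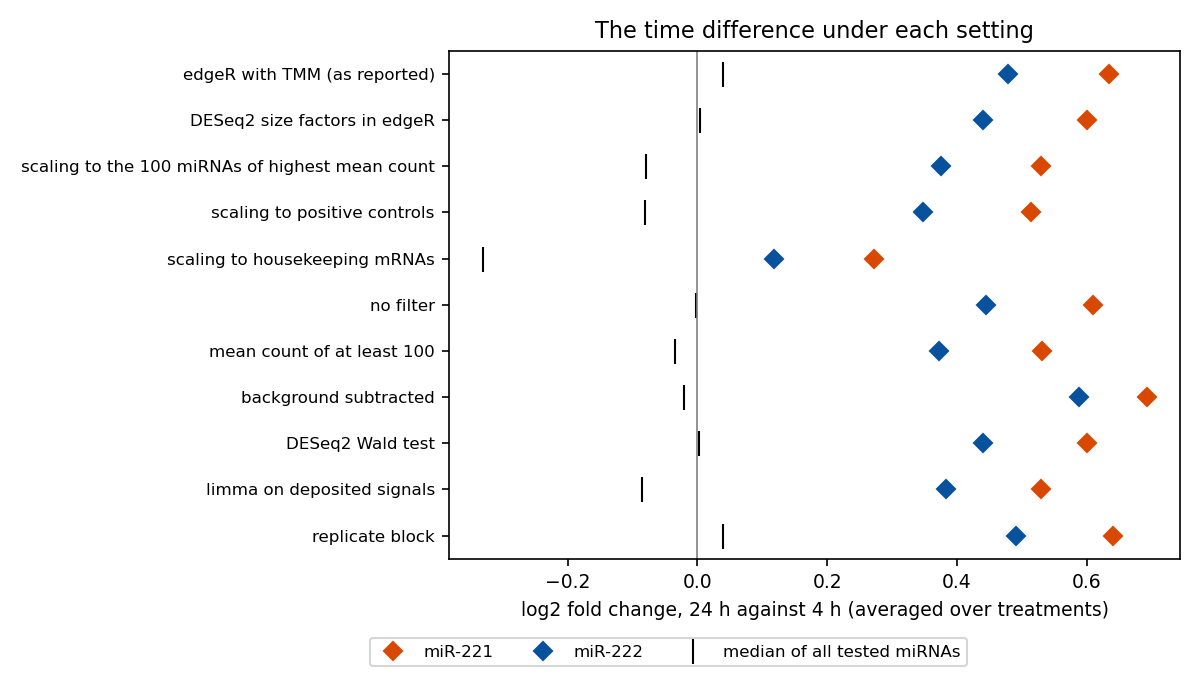
The same time difference for miR-221 (orange) and miR-222 (blue) under each setting, with the median of all tested miRNAs as a black tick. With housekeeping scaling both members (0.27 and 0.12) and the median (-0.33) shift to the left together.

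Within vehicle, which holds culture time without the hormone, miR-221 was higher at 24 h by 0.69 (SE 0.19, 1.62-fold) and miR-222 by 0.46 (SE 0.22, 1.38-fold). These did not pass in edgeR (adjusted p = 0.143 and 0.319), which called 0 of the 195 (0%), though 31 had an unadjusted p under 0.05. In DESeq2 18 were called in either direction and in limma 12. DESeq2 called miR-221 (adjusted p = 0.00830) among 4.62% called higher, and limma on the deposited signals called it (adjusted p = 0.0311) among 4.1%. Without vehicle 4 h replicate 3, the highest miR-221 library of its group, the difference was 0.89 and passed in edgeR (adjusted p = 0.0181), where 12 miRNAs were called.

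Within insulin, miR-221 was higher at 24 h by 0.58 (SE 0.18, 1.49-fold) and miR-222 by 0.49 (SE 0.22, 1.41-fold). Neither passed in edgeR (adjusted p = 0.0872 and 0.217), which called 7 of the 195 (3.59%). Leaving out single libraries gave from 0 calls (without insulin 4 h replicate 1 or 2, vehicle 24 h replicate 2 or 3, or insulin 24 h replicate 2) to 22 (without insulin 24 h replicate 1), and miR-221 was called in 0 of these 12 fits. DESeq2 called miR-221 (adjusted p = 0.0235) among 5.64% called higher, and limma called it (adjusted p = 0.0407) among 4.1%; miR-222 was called by neither. With housekeeping scaling the values were 0.03 and -0.041, where the median of all tested miRNAs was -0.50. The vehicle and insulin values share no libraries, and the difference between them is the same quantity as the difference of insulin responses above, -0.12 and 0.03, which did not pass.

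Since both miRNAs are cut from one transcript, the ratio of their counts within a library asks whether they changed unequally, and it does not depend on how a library is scaled. The count of miR-221 was 2.78 to 4.08 times that of miR-222; the ratio also carries the capture of 2 different probes, so only its change between libraries is read. The log2 ratio was 1.59 ± 0.15 in vehicle at 4 h, 1.71 ± 0.14 in insulin at 4 h, 1.80 ± 0.08 in vehicle at 24 h and 1.79 ± 0.21 in insulin at 24 h (SD, n = 3 each). At 24 h it ran from 1.62 to 2.03 and at 4 h from 1.48 to 1.84, so the times overlapped. The difference of 0.15 did not pass an exact permutation test within treatments (two-sided, p = 0.115, 0.230 adjusted over 2 tests, smallest possible p 0.005). Insulin minus vehicle was 0.06 (exact permutation within times, p = 0.52, adjusted 0.52). With the negative control mean subtracted, which raises the change of miR-222 more, the time difference of the ratio was 0.08 (exact permutation, p = 0.565).

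How the members varied from library to library was read within each time, since the times form separate clusters for miR-221. Within 4 h, log2 CPM of the 2 members correlated with Pearson's r of 0.91 and Spearman's rho of 0.94 over 6 libraries (exact permutation, p = 0.0194 and 0.0167). Adjusted over a family of 3 relations, these p were 0.0292 and 0.0250. The third relation of that family pooled all 12 libraries and so holds the step between the times. Its small p eased the adjustment of the 4 h values. Within 24 h, r was 0.80 and rho 0.71 (exact permutation, p = 0.05 and 0.136; adjusted 0.05 and 0.136), which did not pass. In deviations from the group means over 12 libraries, r was 0.90. It is given without a p, since the deviations of a group sum to 0 and are not free to be permuted. Leaving out the 2 libraries with miR-221 farthest from its median, both of vehicle at 4 h, left r at 0.84 over the other 10. This r pools both times and so includes the step between them, and no p is read from it. These values share library, depth and scaling. By the same measure over all 12 libraries, miR-222 was the 6th most alike of 194 miRNAs to miR-221, and miR-221 the 7th to miR-222.

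**Figure D5:**
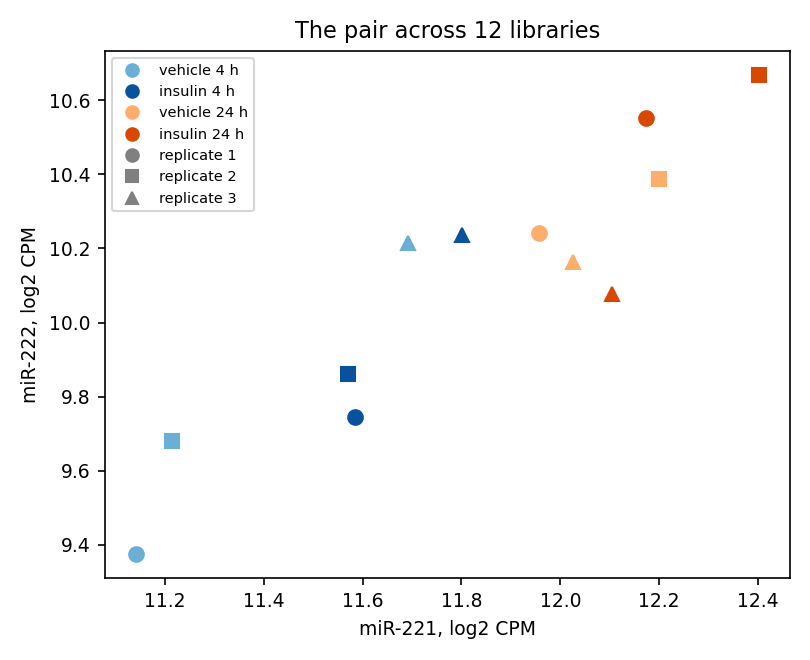
Log2 CPM of miR-222 against that of miR-221 in the 12 libraries, coloured by group and shaped by replicate number. The 4 h libraries (blue) lie to the left of the 24 h libraries (orange), and within 4 h the points rise together (r of 0.91).

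The 5 miRNAs whose log2 CPM followed the mean of the pair most closely over the 12 libraries were read as a description, since likeness includes the step between times. They were the probe miR-106a+miR-17 (r of 0.97), which reads a pair of miRNAs of proliferation-linked clusters, miR-19a (0.95) of the miR-17-92 cluster, let-7e (0.95) of the let-7 family, miR-296-5p (0.95) and miR-365 (0.95). Between 24 h and 4 h, averaged over treatments, these had 0.82 (SE 0.18), 0.45 (SE 0.15), 0.72 (SE 0.19), 1.03 (SE 0.24) and 0.77 (SE 0.21) on the log2 scale. Of the 5, miR-19a alone did not pass the test (edgeR, adjusted p = 0.0586), beside 9.74% called higher over all 195 miRNAs. Rises follow in part from choosing the 5 by likeness to a pair with this step, so their calls are not read as a result. The seed-sharing miR-1928 was at 0.09 (SE 0.13) in this comparison and did not pass (adjusted p = 0.744).

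Other miRNAs reported to act on the same targets, or to respond to growth factors, were set beside the pair. Of 6 listed as repressors of Cdkn1b, 5 were tested and 0 were called in either direction between 24 h and 4 h (2 above 0, median -0.04, beside 110 of 195 and 0.04 over all miRNAs tested, where 15.4% were called). The largest of its values were miR-181a at -0.34 (SE 0.12) and miR-148a at 0.31 (SE 0.23). Of 4 listed as repressors of Kit, 3 were tested and 0 called (2 above 0, median 0.01), with miR-193 at 0.23 (SE 0.13) and miR-34a at -0.19 (SE 0.12). Of 11 listed as responsive to growth factors, 9 were tested, with 4 above 0. In this list 1 was called higher, miR-31 at 1.03 (SE 0.27), beside 9.74% called higher over all miRNAs, and the list median was -0.0019, with miR-132, not called, at 0.34 (SE 0.15).

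For insulin against vehicle averaged over both times, 0 members of these 3 lists were called. The medians were 0.06 for the Cdkn1b list, 0.04 for Kit and 0.12 for growth factor response, beside 0.03 over all 195. In the Kit list miR-193 was at 0.33 (SE 0.13) and miR-193b at -0.24 (SE 0.14), and in the Cdkn1b list miR-24 at 0.21 (SE 0.13). Of the growth factor responsive miRNAs 7 of 9 were above 0, with miR-31 at 0.41 (SE 0.27) and miR-132 at 0.32 (SE 0.15). For comparison, over all miRNAs tested 113 of 195 were above 0.

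Markers of vascular cells, which are rich in miR-221 and miR-222, were read beside the time difference. Of 4 on the panel 3 were above the threshold in any library, and the endothelial miR-126-5p in 0. Their summed counts were 6084 to 7246 CPM of the raw library total at 4 h and 4218 to 4783 at 24 h. This unit differs from the TMM-scaled CPM of the pair, and a lower sum at 24 h was not particular to vascular markers. The growth factor list summed to 115088 to 131498 at 4 h and 96117 to 106935 at 24 h. The Cdkn1b list had 11445 to 14246 and 9046 to 11350, while the Kit list overlapped (1865 to 2494 and 1649 to 1926). At 24 h miR-145 at -0.53 (SE 0.12, adjusted p = 0.0112) and miR-126-3p at -0.44 (SE 0.14, adjusted p = 0.0409) were called lower, and miR-143 was at -0.07 (SE 0.19). Counts of miR-126-3p were 36 to 93 and above the threshold in 4 of 12 libraries, so its value lies near background. Over all 195 miRNAs 5.64% were called lower at 24 h in this comparison. Blood markers summed to 1794 to 6198 such CPM at 4 h and 898 to 1451 at 24 h, with 1 of 7, miR-223, above the threshold in any library and called lower at 24 h (-2.78, SE 0.51). The summed epithelial, glial, and liver and muscle markers overlapped between the times, at 1296 to 2483 and 1298 to 2026, 686 to 1509 and 835 to 1349, and 945 to 1942 and 976 to 1922 CPM. Above the threshold in any library were 2 of 5 epithelial, 1 of 3 glial, and 2 of 5 liver and muscle markers. The sums include the markers below it, so background is part of them. Neuronal markers summed to 8445 to 11046 such CPM at 4 h and 7527 to 9045 at 24 h, which also overlapped. All libraries came from 1 immortalised neuronal line, so these markers are not read as the presence of other cells in the culture. In bulk RNA, fewer cells of a type and less RNA per cell cannot be told apart. Whether other cells were present, or had a part in the time difference of the pair, was not tested.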

How the data were processed

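RNA of 12 libraries was counted on a NanoString nCounter mouse miRNA codeset, per the file headers. The deposited raw table holds whole counts per probe, classed with expected counts because instrument header values in the same columns are not whole; rounding changed nothing, and the test planned for counts was used. The authors also deposited a signal table; by comparison with the raw table, it equals the count times 1 factor per lane, the inverse geometric mean of the 100 most abundant mouse miRNAs (largest gap 0.000365%), for mouse miRNA and housekeeping probes. No source used here names the software. Mouse miRNAs above the negative control mean plus 2 SD of their library in at least 3 of 12 libraries were tested (195 of 566, 34.5%). Viral, spike-in and control probes were left out of the tests.

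Counts were fitted with edgeR 4.0.16 (R 4.3.3, TMM, quasi-likelihood F test, two-sided) with 4 groups in one fit, 8 residual degrees of freedom, and Benjamini-Hochberg adjustment over the 195 miRNAs; an adjusted p under 0.05 is a call. Standard errors and intervals came from the F statistic. No background was subtracted, which pulls fold changes of miR-222 towards 0. Correlations used log2 CPM with a prior count of 2. DESeq2 1.42.0, limma 3.58.1 on log2 of the deposited signal, other scalings and filters, and leaving out each library were the alternatives. Scripts were tested on simulated data. Python 3.11.15 with scipy 1.17.1 ran the permutation tests. The counts carry no molecule identifiers beyond the barcodes. The edgeR p-values rest on the spread between the 3 libraries of each group, pooled over the 4 groups. That spread is partly shared across miRNAs, with 6.77 prior degrees of freedom beside the 8 residual. Permutation p-values rest on rearranging the libraries.

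The members, the lists (reported repressors of Cdkn1b and Kit, growth factor responsive miRNAs, and markers of neurons and of vascular, blood, epithelial, glial, liver and muscle cells) and the tests were chosen with earlier results of these data known. The named miRNAs are the members, the 5 of highest correlation with the pair's mean, and up to 3 per target or growth factor list with the largest changes. Outside that rule, miR-1928 was added for its seed, and miR-9, miR-124, miR-223 and the vascular markers were named as markers, with values known. Between vehicle and insulin at 24 h, deviations from group means of same-numbered libraries correlated at 0.59, 0.50 and 0.31. Their differences are therefore given for that comparison, while its reported test had no replicate block. For the other comparisons at least 1 correlation was under 0.1, and no such differences are given. 1 further list is not reported here.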

Additional observations from a re-analysis of the deposited data

How the results depend on the processing

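The alternatives were other scalings, filters, background subtraction, DESeq2, limma, a block for the replicate number, and leaving out each library. Under all 22 alternatives the insulin comparisons and the difference of responses had 0 calls in edgeR, DESeq2 or limma. Scaling to housekeeping mRNAs, which rested on 4 probes, turned insulin minus vehicle at 24 h to -0.22 for miR-221 and -0.19 for miR-222, and for miR-222 also the average over times (-0.036), the 24 h minus 4 h value in insulin (-0.041) and the difference of responses (-0.32). The last, 0.03 as reported, also turned with DESeq2 size factors (-0.032), no filter (-0.083), a mean count of at least 100 (-0.059) and the DESeq2 Wald test (-0.031), and ran from -0.24 to 0.19 when single libraries were left out. Leaving out single libraries took insulin minus vehicle at 4 h from 0.21 to 0.48 for miR-221 and from -4.17e-05 to 0.42 for miR-222, at 24 h from 0.07 to 0.24 and from 0.06 to 0.35, the miR-221 difference of responses from -0.31 to -0.04 (-0.48 with housekeeping scaling), and the insulin difference of the log2 ratio from -0.000454 to 0.092.

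For 24 h against 4 h averaged over treatments, miR-221 was called except with positive control scaling (0.51), housekeeping scaling (0.27) and no filter (0.61), where all 566 probes shared the adjustment. Its adjusted p ran from 2.58e-05 to 0.307. miR-222 was called with scaling to the top 100 (0.38), a mean count of at least 100 (0.37), DESeq2 (0.44) and limma (0.38). In that order, 32 of 195, 36 of 119, 41 of 195 and 31 of 195 miRNAs were called in these settings. Without single libraries the value of miR-222 ran from 0.33 to 0.61. In vehicle, miR-221 was called with scaling to the top 100 (0.59), a mean count of at least 100 (0.63), DESeq2 (0.69) and limma (0.59), and ran from 0.55 to 0.89 without single libraries. In insulin it was called with scaling to the top 100 (0.47), DESeq2 (0.51) and limma (0.47). The correlation of the members within 24 h was 0.80 and did not pass. Causes were not tested.

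Counts of calls moved too. They are out of 195 miRNAs, except 119 with a mean count of at least 100 and 566 with no filter. In vehicle, where 0 were called, there were 9 with the top 100, 1 with positive controls, 7 with a mean count of at least 100, 18 with DESeq2, 12 with limma and 0 to 12 without single libraries. In insulin, where 7 were called, there were 2 with DESeq2 size factors, 15 with the top 100, 2 with positive controls, 16 with housekeeping mRNAs, 1 with no filter, 13 with a mean count of at least 100, 2 with background subtracted, 22 with DESeq2, 16 with limma and 0 to 22 without single libraries. For the average, where 30 were called, there were 17 with positive controls, 17 with housekeeping mRNAs, 9 with no filter and 12 to 52 without single libraries. Over all groups, deviations of same-numbered libraries correlated above 0.1 in 8 of 18 pairs (-0.43 to 0.74). Differences of same-numbered libraries were given for vehicle and insulin at 24 h alone. With the replicate number as a block, miR-221 in vehicle was 0.70 and was called (adjusted p = 0.0487), and miR-222 in the average was 0.49 and was called (adjusted p = 0.0401). The block changed no call in the insulin comparisons, the one at 24 h included (miR-221 0.17, miR-222 0.19, adjusted p = 0.982), and gave 10 calls in vehicle, 18 in insulin and 35 in the average, and left the ratio at 0.15 and 0.06 (time and insulin). With background subtracted the averaged time difference was 0.59 for miR-222 and 0.69 for miR-221.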
